A study of Mus musculus with 18 samples.

Results

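The libraries compared here are the 8 of 18 that carried a high signal over genes that the brain is not known to use. They were chosen by their receptor gene signal, the mean FPKM over 1420 olfactory and vomeronasal receptor genes, after trimming a share of 0.25 from each end. FPKM stands for fragments per kilobase, relative to the fragments of a library. How libraries were scaled to each other is not given. Libraries at 1.8 FPKM or more form the high class, and the other 10 form the low class. The lowest library of the high class stood at 2.05 FPKM and the highest of the low class at 1.41 FPKM. These values chose the classes and are not tested. The classes were set from the data and are not groups of the study. No value of RNA integrity was available to this comparison, so the classes are named by what was measured.

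The study profiled astrocytes from the primary motor cortex (M1) of wild-type C57BL/6 mice, with 6 libraries in each of 3 training groups. Naive mice had no training and were 12 to 21 weeks old. Novice mice had 3 days of training on a lever task rewarded with water and were 11 to 13 weeks old. Expert mice were fully trained and were 13 to 15 weeks old. Each group had 2 libraries labelled female and 4 labelled male. The design text describes water restriction for the training, and the isolation of the astrocytes is not described in the labels. Cells were digested with proteinase K, RNA was cleaned on a silica column of a kit for fixed tissue, and libraries were made with a stranded total RNA kit. The labels give no mouse number, so replicates may differ by animal or only by preparation, and p-values measure the spread between libraries.

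Olfactory and vomeronasal receptors are the odour and pheromone detectors of sensory neurons in the nose. Each gene is transcribed in few cells there and in hardly any elsewhere. Astrocytes are the glia that clear glutamate, buffer potassium and couple to each other through gap junctions. A preparation of them can also hold RNA of neurons, oligodendrocytes, vessel cells, microglia and blood. Neuronal processes that touch astrocytes carry certain messenger RNAs away from the cell body.

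Libraries of the high class came from all training groups. They were naive 5 and 6 (3.03 and 2.82 FPKM), novice 3, 4, 5 and 6 (2.82, 2.41, 2.93 and 2.31 FPKM) and expert 4 and 5 (2.61 and 2.05 FPKM). In the low class the naive libraries 1 to 4 stood at 1.19, 0.422, 1.09 and 0.551 FPKM and novice 1 and 2 at 1.10 and 0.910 FPKM. Expert 1, 2, 3 and 6 stood at 1.41, 0.572, 0.0126 and 0.815 FPKM. Expert 3 lay far below all others. Class followed replicate number in part: replicates 1 and 2 were low and replicate 5 was high in all 3 training groups. What the numbers stand for is not given. The split of 2, 4 and 2 high libraries among naive, novice and expert had p = 0.589 (exact test of the table, two-sided). Against labelled sex, with 2 female and 6 male in the high class and 4 female and 6 male in the low class, Fisher's exact test gave p = 0.638. By sex-linked genes, 2 libraries went against their labels. Xist, made from an inactive X, and Ddx3y, on the Y, stood at 1.60 and 12.6 FPKM in novice 1, whose label is female. They stood at 17.97 and 3.29 FPKM in novice 3, whose label is male. Mean age was 13.6 ± 1.41 weeks (SD, n = 8) in the high class and 14.1 ± 2.60 weeks (n = 10) in the low class (exact permutation test, two-sided, p = 0.845).

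**Figure D1:**
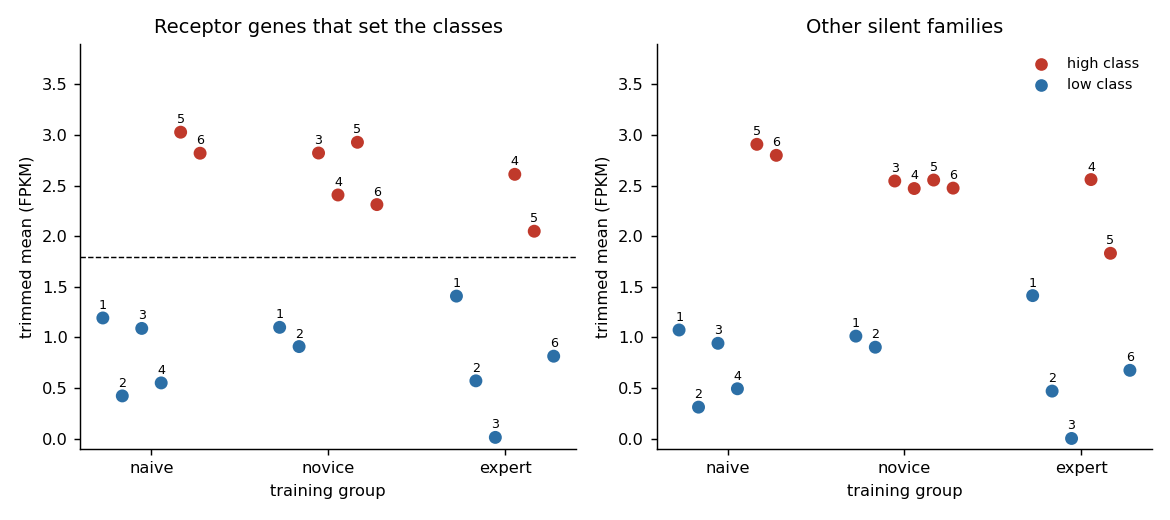
Trimmed mean FPKM of each library over the receptor genes that set the classes (left, dashed line at 1.8 FPKM) and over 367 other genes of silent families (right), by training group, with replicate numbers beside the points. On the right, where no threshold was applied, the 8 high libraries lie at 1.83 to 2.91 FPKM and the 10 low ones at 0.00205 to 1.41 FPKM.

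Other families that are silent in brain followed the receptor genes. The bitter and trace amine receptors, which detect taste and volatile amines, stood at 0 to 1.29 FPKM in the low class and 1.67 to 2.95 FPKM in the high class. Keratin-associated proteins of hair lay at 0 to 1.42 against 1.53 to 2.92 FPKM, and proteins of sperm at 0.106 to 1.53 against 2.07 to 3.27 FPKM. The kallikreins of glands, the secretory proteins of the seminal vesicle and prostate, the keratins of hair and epithelium and the oocyte genes likewise had classes that did not overlap. In the beta-defensins, antimicrobial peptides of epithelia, the lowest high library (1.61 FPKM) lay under the highest low library (1.90 FPKM). The late cornified envelope and small proline-rich proteins of skin also overlapped (1.40 and 1.45 FPKM). The 69 genes of X-linked germ-line families, many of them near-identical copies, stood at 0 to 0.982 FPKM in the low class and 0.0556 to 1.64 FPKM in the high class.

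Libraries of the high class spread their values over more genes. They had 20613 ± 309 genes at 1 FPKM or more, against 17613 ± 1689 in the low class (exact permutation test, two-sided, adjusted p = 0.000183 over 6 measures). Genes at exactly 0 numbered 2681 ± 330 against 3462 ± 909 (exact permutation test, adjusted p = 0.0144). With the receptor genes left out of both counts they were 19532 ± 259 against 17049 ± 1471 (exact permutation test, adjusted p = 0.000183) and 2381 ± 272 against 2946 ± 692 (exact permutation test, adjusted p = 0.0265). The 100 highest genes other than Bc1 held 59.5% ± 3.03 of the remaining summed FPKM in the high class and 66.9% ± 1.77 in the low class (exact permutation test, adjusted p = 0.000206). The deeper a library, the less FPKM a single fragment is worth. Read from the receptor genes that set the classes, 1 fragment on 1 kb of transcript was worth 1.45 ± 0.294 FPKM in the high class and 0.834 ± 0.190 FPKM in 9 low libraries, and is unknown for expert 3. Read from 104 genes of the other silent families it was worth 1.36 ± 0.355 against 0.845 ± 0.185 FPKM in the same 9 low libraries (exact permutation test, adjusted p = 0.00217). The difference depends on how the step is read, since with another range of values of the receptor genes it was 0.13 FPKM and did not pass. The worth of a fragment also depends on the scaling between libraries, which is not given. The part of depth in the differences that follow was not tested. All these measures share the total of a library with the receptor genes and are not independent of them.

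Genes that reached 5 FPKM in 6 or more libraries numbered 11141. Of these, 6855 (61.5%) differed between the classes in limma's test on log2(FPKM + 1), with training group as a covariate and Benjamini-Hochberg adjustment over all tested genes. In the high class 2793 genes (25.1%) were higher and 4062 (36.5%) were lower. The median log2 difference, high minus low, was -0.19 over all tested genes, and it was -0.20 within naive, -0.09 within novice and -0.24 within expert. Of the genes that were lower, 3976 had a lower mean in the high class within all 3 training groups, and of those that were higher, 2708 had a higher one. Without novice 1 and novice 3 the genes called numbered 6614. Genes whose classes did not overlap in any library numbered 1017 higher (9.13%) and 1279 lower (11.5%). Receptor genes that passed the filter numbered 149, of which 127 were called higher and 0 lower, and these repeat the choice of the classes. The filter itself let 327 genes through only by their values in the high class and 47 only by those in the low class. The split between directions depends on the filter and the scaling. Of the called genes 40.7% were higher, against 65.8% with no filter, 65.8% with a filter of 1 FPKM and 28.2% with one of 20 FPKM. With values rescaled to the total without Bc1 the share was 61.6%, and with the silent-gene signal subtracted from each gene it was 24.9%.

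Transcripts of astrocytes were lower in the high class without exception on the list. All 36 astrocyte identity genes were tested and 36 were called lower, beside 36.5% of all genes, with a median log2 difference of -1.05 and a range of -1.65 to -0.53. In 28 of them the classes did not overlap, beside 11.5% of all genes. The median was -1.30 within naive, -0.87 within novice and -1.06 within expert. The mean log2(FPKM + 1) of the list was 7.50 to 8.83 in the low libraries and 6.63 to 7.11 in the high ones. In bulk libraries, fewer cells of a type and less RNA per cell cannot be told apart.

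Slc1a2, the main glutamate transporter of astrocytes, ranged from 518 to 860 FPKM with a median of 662 in the high class. In the low class it ranged from 1222 to 2708 FPKM with a median of 1657. The classes did not overlap, and the log2 difference was -1.34 (SE 0.18, limma, adjusted p = 2.23e-05). Its partner Slc1a3 stood at 239 ± 36.2 FPKM in the high and 601 ± 186 FPKM in the low class (log2 -1.20). Gja1, which forms the astrocyte gap junctions, stood at 128 ± 18.996 against 284 ± 105 FPKM (-1.01), and the water channel Aqp4 at 35.2 ± 4.16 against 74.7 ± 25.8 FPKM (-0.91). Aldh1l1, a folate enzyme used as a pan-astrocyte marker, was lower by a log2 of -0.86. Glul, the enzyme that turns glutamate into glutamine, stood at 415 ± 62.8 against 1107 ± 296 FPKM (-1.33). The calcium-binding protein S100b had the lowest value on the list, -1.65, at 21.4 to 56.1 FPKM in the high libraries and 71.0 to 148 FPKM in the low ones. The intermediate filament gene Gfap, at 10.8 ± 2.08 against 21.5 ± 8.46 FPKM (-0.71, limma, adjusted p = 0.00317), was the one of these in which the classes overlapped. Its difference was -0.40 and no longer passed when values were rescaled to the total without Bc1. The secreted lipid carrier Apoe, the most abundant gene of the list, fell from 5029 ± 1575 FPKM in the low to 2187 ± 251 FPKM in the high class (-1.13).

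Genes of high level were lower in general, and astrocyte markers are abundant. The list's median lay -0.14 from that of genes of like level, taken from 50 bins of mean FPKM. For Slc1a2 the distance was -0.36, for S100b -0.74 and for Aqp4 -0.04.

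**Figure D2:**
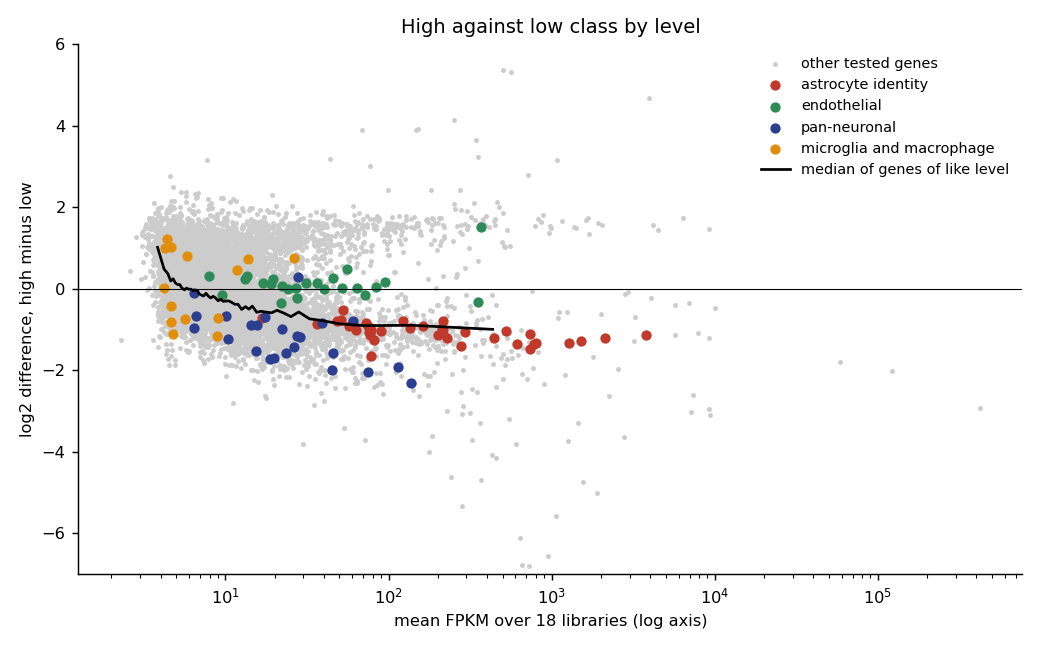
Log2 difference between classes (high minus low) of each tested gene other than the receptor genes against its mean FPKM over the 18 libraries, on a log axis, with 4 cell type lists in colour and the median of genes of like level as a line. Astrocyte genes lie near that line, the endothelial genes lie above it and most neuronal genes below it.

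Endothelial transcripts did not follow the astrocyte genes. Of 24 markers tested, 1 was higher (beside 25.1% of all genes) and 0 were lower (beside 36.5%) in limma's fit, with a median log2 difference of 0.10 that lay 0.76 above genes of like level. That median was -0.06 without novice 1 and 0.27 without expert 4, the extremes of leaving out 1 library. Flt1, a receptor for vascular growth factor, stood at 57.9 ± 9.36 FPKM in the high and 68.4 ± 34.8 FPKM in the low class (log2 0.01, SE 0.21). Cldn5, the tight junction protein of the blood-brain barrier, stood at 36.3 ± 8.19 against 43.6 ± 25.1 FPKM (-0.01, SE 0.23). Both signs turn under other settings. The 1 that passed was Ctla2a, a protease inhibitor, at 453 to 667 FPKM in the high libraries and 44.7 to 313 FPKM in the low ones (1.52). The list was not uniform across libraries. Its mean log2(FPKM + 1) was 4.29 to 6.13 in the low class and 4.79 to 5.42 in the high class. Its median difference was 0.06 within naive, 0.83 within novice and -0.59 within expert, where the low libraries expert 3 and expert 6 were the highest of all.

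The cells that surround vessels gave a like picture. Among 14 pericyte and smooth muscle markers 3 were higher (beside 25.1% of all genes) and 0 lower (beside 36.5%), with a median of 0.10, which was 0.01 without novice 1 and 0.25 without naive 6. The higher ones were Anpep, a surface peptidase (0.66), the smooth muscle actin Acta2 (0.72) and the myosin Myh11 (0.46, limma, adjusted p = 0.0464), and Myh11 lost its call in 24 of the 34 settings in which it was tested. Acta2 lost it without naive 5 or without novice 1 (0.65 and 0.64). Rgs5, a pericyte regulator of G protein signalling, stood at 73.2 ± 17.6 against 96.4 ± 44.3 FPKM (-0.25, SE 0.21) and did not pass. Of 5 fibroblast markers tested, 2 were higher (40%, beside 25.1% of all genes) and 1 was lower (20%, beside 36.5%). The matrix proteoglycan Dcn was higher (0.85). Ptgds, a prostaglandin synthase that glia and the meninges also make, was lower (-1.04). With the silent-gene signal subtracted from each gene, Anpep (0.24), Acta2 (0.39), Myh11 (0.11) and Dcn (0.57) did not pass.

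Neuronal transcripts were lower, and the pan-neuronal genes lay further below genes of like level than those of astrocytes. Of 24 pan-neuronal genes 0 were higher and 22 lower (91.7%, beside 36.5% of all genes), with a median of -1.17, which lay -0.66 from genes of like level. Map2, a microtubule protein of dendrites, ranged from 20.1 to 40.4 FPKM in the high libraries and from 68.3 to 183 FPKM in the low ones (-2.05, SE 0.22, limma, adjusted p = 5.2e-06). Nrgn, a postsynaptic calmodulin-binding protein, stood at 45.6 ± 18.4 against 209 ± 73.0 FPKM (-2.32). The vesicle fusion gene Snap25 stood at 49.0 ± 17.99 against 166 ± 50.01 FPKM (-1.91). Of 18 excitatory markers 1 was higher and 12 were lower (66.7%), with a median of -0.73, which lay -0.33 from genes of like level. Of these, 1 passed the filter only through the low class. Camk2a, a synaptic kinase, stood at 85.0 ± 43.1 against 435 ± 197 FPKM (-2.54), and the dendritic protein Ddn at 26.4 ± 14.7 against 146 ± 66.9 FPKM (-2.59). In both, the classes overlapped.

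Of 11 inhibitory markers tested, 3 were higher and 6 lower. These are 27.3% and 54.5%, beside 25.1% and 36.5% of all genes. Their median of -0.70 lay -0.18 from genes of like level, against -0.14 for the astrocyte list. The neuropeptides Cck (-1.68) and Npy (-1.86) were lower. Adarb2, an RNA-binding relative of the editing enzymes, was higher, at 29.9 to 47.0 against 3.66 to 25.8 FPKM (1.32). Within expert the median of these 11 was 0.07, against -0.62 within naive and -0.88 within novice.

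Bc1, a short noncoding RNA that neurons carry into dendrites, held 13.1% ± 4.51 of the summed FPKM in the high class and 41.9% ± 14.5 in the low class (exact permutation test, adjusted p = 0.000183). It is not a share of fragments, since FPKM weights short transcripts. Its log2 difference was -2.92 (SE 0.42, limma, adjusted p = 3.05e-05). With no filter or with a filter of 1 FPKM the difference was still -2.92 but did not pass. Bc1 was the highest tested gene of every library, so quantile normalization gives it the same value in each and cannot test it. The summed FPKM of all other genes was 651469 ± 36004 in the high and 806547 ± 68854 in the low class (exact permutation test, adjusted p = 0.000183). After the values were seen, 15 RNAs known to be carried into dendrites were listed, among them Bc1, Map2, Nrgn, Camk2a, Ddn, Arc and Shank1. All 15 were lower, beside 36.5% of all genes, with a median of -2.15. The other 48 tested members of the neuronal lists held 35 lower and 4 higher genes, with a median of -0.90. The dendritic set was also more abundant (median 68.4 against 15.9 FPKM) and lay -1.39 from genes of like level, against -0.37 for the others. Several of its members were picked with their values known, so these counts are a description.

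**Figure D3:**
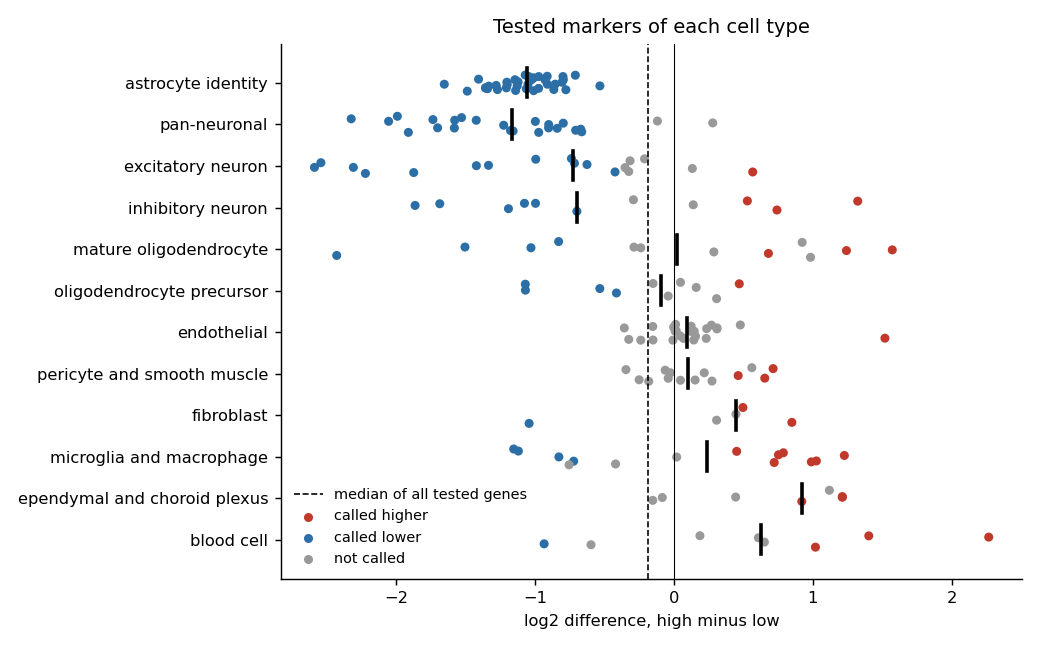
Log2 difference (high minus low) of each tested marker of 12 cell types, coloured by limma's call. Black bars are list medians and the dashed line is the median of all tested genes, -0.19. Astrocyte and neuronal markers lie to the left, endothelial and pericyte markers lie around 0, and the other lists are mixed.

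Oligodendrocyte markers were called about as often as other genes. Of 12 mature markers 3 were higher (25.0%, beside 25.1% of all genes) and 4 lower (33.3%, beside 36.5%). Their median of 0.03 was -0.02 without naive 5 and 0.11 without expert 5. Mbp, a myelin protein whose RNA is carried into processes, ranged from 5.93 to 25.4 FPKM in the high and from 25.2 to 159 FPKM in the low class (-2.43, SE 0.36, limma, adjusted p = 4.24e-05). Gjc3, a connexin of oligodendrocytes, was higher, at 122 to 177 against 9.90 to 91.2 FPKM (1.57). Car2, a carbonic anhydrase, was lower (-1.50). Of 10 precursor markers 1 was higher (10%) and 4 lower (40%), beside the same shares of all genes. Their median of -0.09 was -0.17 without novice 2 and -0.01 without expert 5. Those lower included Cspg5 and Ptprz1 (both -1.07), surface proteoglycan genes that astrocytes use as well. Pdgfra, the growth factor receptor of precursors, stood at 8.94 ± 1.65 against 8.18 ± 3.32 FPKM (0.31) and did not pass. It did without expert 3 (0.37).

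Of 26 microglial markers listed, 14 passed the filter. Of these, 7 were higher (50%, beside 25.1% of all genes) and 4 lower (28.6%, beside 36.5%). Their median was 0.24, and 0.15 without expert 3. These genes are low, and the list lay -0.07 from genes of like level, so it did not rise beyond them. The median was 0.20 within naive, -0.02 within novice and 0.72 within expert. The chemokine receptor Cx3cr1 ranged from 29.0 to 40.04 FPKM in the high and from 4.33 to 32.8 FPKM in the low libraries (0.75, limma, adjusted p = 0.0258). It did not pass without naive 6, without expert 4 or without expert 5 (0.73, 0.64 and 0.69). The scavenger receptor Cd163 of macrophages was higher with no overlap, at 4.599 to 8.36 against 0.376 to 4.59 FPKM (0.99). It passed the filter only through the high class, so its call supports nothing. The calcium-binding Aif1 was higher (1.03), and the integrin Itgam stood just inside the threshold (0.72, adjusted p = 0.0480) and lost its call in 19 of 34 settings. Those that were lower, named here after their values were seen, included the lysosomal gene Ctss (-1.15, not past the threshold with log2 signal in place of the classes) and the complement genes C1qb (-1.12) and C1qc (-0.83). C1qc did not pass without naive 6 (-0.71) or rescaled to the total without Bc1 (-0.57). With the silent-gene signal subtracted, Cd163 (0.62) and Aif1 (0.73) did not pass. P2ry12, a receptor of resting microglia, was at 1.10 to 6.59 FPKM in all libraries and was not tested.

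Few ependymal, choroid plexus and blood markers passed the filter. Of 7 ependymal and choroid plexus genes tested 3 were higher (beside 25.1% of all genes) and 0 lower (beside 36.5%), with a median of 0.92, which was 0.60 without naive 6. Kl, a co-receptor for a hormone of phosphate balance, and Prlr, the prolactin receptor, were both higher by 1.21 with no overlap. The defining choroid plexus gene Ttr stood at 55.6 ± 34.7 against 26.1 ± 28.8 FPKM and did not pass (adjusted p = 0.0762), but did without naive 3 or without expert 4 (1.35 and 1.54). Of 8 blood cell genes tested 3 were higher (37.5%, beside 25.1% of all genes) and 1 lower (12.5%, beside 36.5%), with a median of 0.63. Of the 3 higher, 1 passed the filter only through the high class. Cd3d, of the T cell receptor complex, stood at 58.5 ± 6.71 against 29.0 ± 14.7 FPKM (1.02). The difference of Cd3d was 1.24 within naive, 0.27 within novice and 1.55 within expert. Its partner Cd3e stood at 6.63 ± 2.37 against 1.97 ± 1.09 FPKM and passed the filter only through the high class, so its call supports nothing. Red cell RNA was present in both classes. The haemoglobin gene Hbb-bs stood at 86.3 ± 30.3 against 81.2 ± 36.03 FPKM (0.19, SE 0.29, limma, adjusted p = 0.590) and did not pass. Hbb-b1, a near-identical copy that can share its reads, was at 0.000442 to 0.00495 FPKM in all libraries and was not tested.

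**Figure D4:**
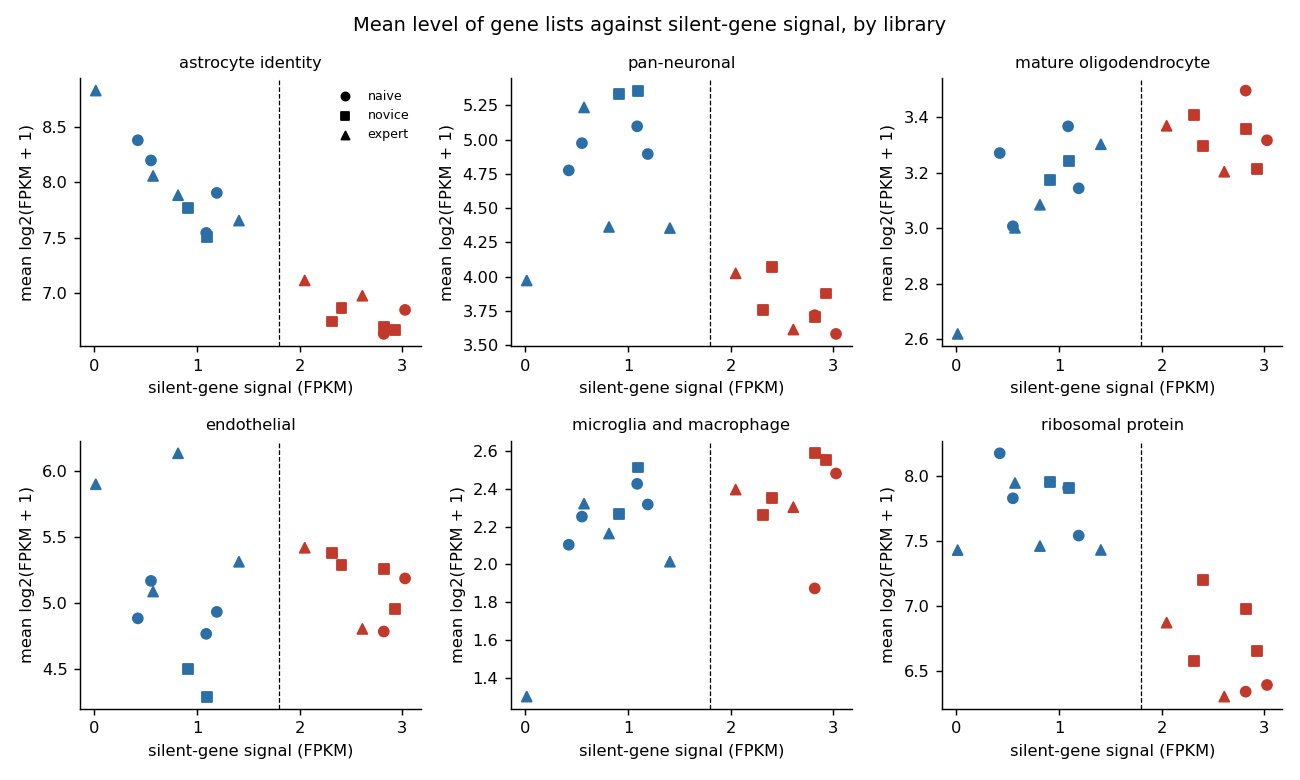
Mean log2(FPKM + 1) of the listed genes in each library against its silent-gene signal, for 6 lists. Colour marks the class, symbols mark training groups and the dashed line is at 1.8 FPKM. Astrocyte identity and ribosomal protein genes have classes that do not overlap, at 6.63 to 7.11 against 7.50 to 8.83 and at 6.30 to 7.20 against 7.43 to 8.17, while endothelial levels overlap.

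Several lists of genes that most cells use were lower, as the astrocyte genes were. Of 67 cytosolic ribosomal protein genes 0 were higher (beside 25.1% of all genes) and 63 lower (94.0%, beside 36.5%). Their median of -1.14 lay -0.25 from genes of like level. Rplp2, of the large subunit, stood at 131 ± 32.9 against 347 ± 55.0 FPKM (-1.53). Many ribosomal protein genes have near-identical processed copies, which share reads with them. Of 63 nuclear genes of oxidative phosphorylation 1 was higher (1.59%) and 61 lower (96.8%). Their median of -1.14 lay -0.29 from genes of like level. Sdha, a subunit of complex II, stood at 27.9 ± 4.12 against 69.7 ± 10.46 FPKM (-1.29). Heat shock and chaperone genes were lower in 15 of 27 (55.6%, beside 36.5% of all genes) and higher in 0. Their median of -0.64 lay 0.003 from genes of like level, so they moved as those did. The chaperone Hsp90ab1 was lower by -1.10. Genes of cholesterol synthesis were higher in 1 of 22 (4.55%) and lower in 12 (54.5%), among the latter their regulator Srebf2 (-0.91). The median of this list, -0.55, lay -0.11 from genes of like level.

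Immediate early genes, which neurons and glia switch on within minutes of a stimulus, were called less often than other genes in both directions. Of 27 tested 3 were higher (11.1%, beside 25.1% of all genes) and 4 lower (14.8%, beside 36.5%), with a median of -0.03. That median lay 0.38 above genes of like level. It was -0.03 within naive, 0.43 within novice and -0.40 within expert. Arc, whose RNA is carried into dendrites, was lower (-1.96, not past the threshold with log2 silent-gene signal in place of the classes), and the nuclear receptor Nr4a2 was higher (0.69). Replication-dependent histones, whose RNA has no poly(A) tail, were higher in 1 and lower in 3 of 12 (25.0%, beside 36.5% of all genes), with a median of -0.87. Hist1h2bc was lower (-1.34) and Hist2h2be higher (0.58), the latter not without naive 5 or without novice 1 (0.47 and 0.48).

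Nuclear long noncoding RNAs differed among themselves. Of 16 tested 1 was higher (6.25%) and 8 lower (50%, beside 36.5% of all genes). Malat1, a nuclear speckle RNA, stood at 749 ± 196 against 1380.5 ± 488 FPKM (-0.72) and lost its call in values rescaled to the total without Bc1. The imprinted Meg3 was lower by -1.26 (not past the threshold with log2 signal in place of the classes), and Gas5, a host of small nucleolar RNAs, by -0.99. Kcnq1ot1, an imprinted antisense RNA, was higher, at 358 to 587 FPKM in the high and 37.7 to 251 FPKM in the low libraries (1.47, SE 0.29, limma, adjusted p = 0.000354).

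Taken within each direction, with predicted loci and receptor genes left out, the genes of smallest p came from no list. Among those higher were Iffo2, at 14.6 to 20.6 against 5.94 to 10.8 FPKM (0.96), and Osgepl1, a mitochondrial enzyme of transfer RNA modification, at 32.9 to 46.6 against 8.73 to 21.95 FPKM (1.33). Among those lower were Arnt2, a transcription factor of neurons, at 8.81 to 11.0 against 20.3 to 35.7 FPKM (-1.30), Trak1, an adaptor for mitochondrial transport (-1.18), Rad21, a cohesin subunit (-1.07), and Calm2, a calmodulin gene (-1.63). Across both directions, the list members Sdha and Rplp2 (limma, unadjusted p = 8.43e-09 and 1.69e-08) had a smaller p than Iffo2 (2.46e-08).

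The direction followed level, structure and kind of gene. Genes with a mean under 5 FPKM had a median log2 difference of 0.40, those at 5 to 10 FPKM -0.10 and those at 100 FPKM or more -0.97. A gene with a mean under 5 FPKM was tested only if 6 libraries still reached 5 FPKM. The filter let 327 genes through only by the high class and 47 only by the low class, so the value of this lowest bin is partly set by the filter. Genes of 1 exon stood at 0.12, those of 2 to 4 exons at 0.19 and those of 20 or more exons at -0.40. Genes spanning under 5 kb stood at -0.10 and those spanning 100 kb or more at -0.36. Protein-coding genes, 9950 in number, were higher in 20.4% and lower in 39.8%, with a median of -0.25. The 609 long noncoding genes were higher in 72.6% and lower in 7.72%, with a median of 1.18. These features came from an annotation of another build, matched by symbol for 98.6% of tested genes, and they are not independent of each other or of level.

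**Figure D5:**
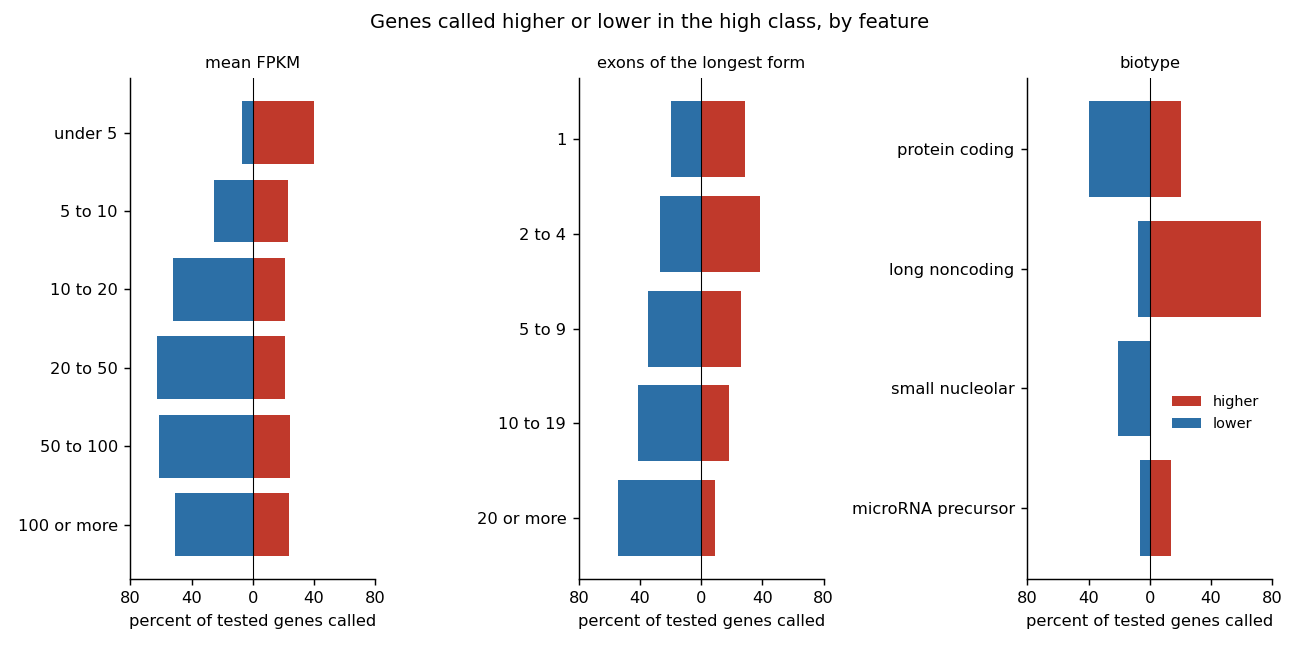
Percent of tested genes called higher (right of 0) or lower (left of 0) in the high class, by mean FPKM, by the number of exons and by kind of gene. Single-exon genes were higher in 28.4% and lower in 19.8%, and those of 20 or more exons in 8.84% and 54.5%. The bar of genes with a mean under 5 FPKM is partly set by the filter, which asks for 5 FPKM in 6 libraries.

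A set of abundant genes went against the trend with level. Of 771 genes with a mean of 50 FPKM or more, 431 were lower and 184 higher. The 184 included 108 protein-coding and 48 long noncoding genes and 11 microRNA precursors. In 159 of them the classes did not overlap, and 156 of these, the microRNA precursors left out, had a median log2 difference of 1.52 in a range of 0.40 to 2.02. Smn1, whose protein assembles splicing particles, stood at 1333 ± 286 against 427 ± 159 FPKM. Zfp65, a zinc finger gene, stood at 816 ± 146 against 255 ± 116 FPKM, and the cytosolic DNA sensor Aim2 at 202 ± 30.4 against 67.2 ± 32.7 FPKM. Nuf2, a kinetochore gene of dividing cells, stood at 169 ± 23.1 against 53.1 ± 21.9 FPKM. These 4 were named after their values were seen. Ctla2a, Gjc3 and Kcnq1ot1, named above from their lists, are of the same kind.

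The transcripts of some of these genes shared short stretches of sequence, while most held none of the words shown here. Words of 20 bases, counted on either strand in the transcripts of 148 higher genes and 415 lower ones, are shown because they recur in the first set. The capitals mark the whole shared word, and 4 words without overlap were picked to cover the most genes.
Word 1: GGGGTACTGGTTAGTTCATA
Word 2: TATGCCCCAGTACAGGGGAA
Word 3: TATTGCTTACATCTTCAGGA
Word 4: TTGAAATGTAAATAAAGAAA
Word 1 was in 16 of the higher and 1 of the lower genes, word 2 in 13 and 0, word 3 in 9 and 0, and word 4 in 9 and 1. Ctla2a and Zfp65 held word 1, Gjc3 and Aim2 held word 2, and Kcnq1ot1 held words 2 and 4. Smn1 and Nuf2 held none. At least 1 word was in 42 of 148 higher genes (28.4%) and in 2 of 415 lower genes (0.482%), and the words were chosen for this contrast, so it supports nothing. Each was in 0.241% to 0.578% of 10378 tested genes with transcripts. Words 1 and 2 belong, as background, to the 3′ end of the mouse LINE-1 retrotransposon, which has a great many copies in the genome. Reads from such a copy in a transcript and from elsewhere in the genome share their sequence, and no source used here says how reads with several matches were counted. Among genes at 10 to 50 FPKM, which did not serve to choose the words, 20 of 56 with a word were higher (35.7%) and 26 lower (46.4%), with a median of -0.28. Of 3965 without a word 20.2% were higher and 56.4% lower, with a median of -0.52. Below 10 FPKM, 30.2% of 63 genes with a word were higher and 17.5% lower, against 26.1% and 21.8% of 5627 without one.

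Variation inside the classes, which the threshold did not use, gave a further reading. With 1 slope on log2 silent-gene signal centred within each class, and without expert 3, 1066 genes passed (9.57%), of which 759 (6.81%) rose and 307 (2.76%) fell with signal (limma, Benjamini-Hochberg). Of the 149 receptor genes, which are part of the signal itself, 15 rose and 0 fell, and of the other 10992 genes 744 (6.77%) rose and 307 (2.79%) fell. All 36 astrocyte identity genes had a negative slope, and in 19 it passed, beside 2.76% of all genes. Their median slope was -0.49, against -0.39 in genes of 50 FPKM or more without a word. Slopes were also negative in 66 of 67 ribosomal protein genes, 60 of 63 of oxidative phosphorylation and 27 of 27 heat shock and chaperone genes. These passed in 8, 6 and 6 genes, so the fall was not particular to astrocyte genes. Slc1a3 had a slope of -0.54 per doubling of signal (limma, adjusted p = 0.0146), while that of Slc1a2, at -0.48, did not pass (adjusted p = 0.0566). Of 24 endothelial genes 1 rose and 0 fell past the threshold, and of 24 pan-neuronal genes 0 passed in either direction. Slopes were negative in 21 of the endothelial and 19 of the pan-neuronal genes. Kcnq1ot1 rose by 0.71 (limma, adjusted p = 0.002003), Ctla2a by 0.61 (adjusted p = 0.00689) and Cd3d by 0.78 (adjusted p = 0.0217). Fitted within the 9 low or the 8 high libraries alone, or with replicate number as a block, 0 genes passed in limma, against 2641, 847 and 1535 genes at an unadjusted p under 0.05. The median slope of the astrocyte genes was -0.47 in the low and -0.35 in the high libraries alone. That of the endothelial genes was -0.11 and -1.27, that of the pan-neuronal genes -0.17 and -0.56, and that of all tested genes -0.11 and -0.07.

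The contrast between classes differed among training groups in 1 gene of 11141 (0.00898%), the microRNA precursor Mir568, with 756 genes at an unadjusted p under 0.05 (limma, moderated F test). It was listed at 0 in all 6 high libraries of novice and expert, and stood at 1591 and 1253 FPKM in the high libraries of naive and at 476 to 3778 FPKM in the low libraries. FPKM of so short a gene rests on few fragments.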

How the data were processed

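RNA of M1 astrocytes was measured in 18 libraries. Per the submitters' processing notes, TopHat and Cufflinks were used with mouse build mm9. The sources used here give no version, annotation or scaling between libraries. The upper quartile of FPKM lay at 8.20 (expert 1) to 8.89 (expert 6) in all libraries. Bc1 held 6.01% (naive 6) to 59.6% (novice 2) of summed FPKM. Whether values had been scaled to a like quartile is not known. The split between directions, the summed FPKM without Bc1 and the worth of 1 fragment would depend on such a scaling. The authors deposited 1 table of FPKM values, titled as normalized counts. Of 23951 entries, 27 with names turned into dates were left out. Read totals are not part of the table. The worth of 1 fragment was read from 150 receptor genes of 1 transcript and 1 exon, as the step of which 83.0% to 94.7% of the low values (the lowest 60%) were whole multiples within 0.1 of a step. Expert 3 showed none (11.8%). This definition was chosen after others were seen.

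Values were transformed to log2(FPKM + 1), so that differences of low genes are understated. The fits used limma 3.58.1 (R 4.3.3; lmFit and eBayes with trend, two-sided, Benjamini-Hochberg, threshold 0.05) on class and training group, for genes with at least 5 FPKM in 6 libraries. Single values were compared by exact permutation tests (SciPy 1.17.1). On simulated data of 11141 genes with known changes, this fit of high against low called 72% and 70% of genes changed by a log2 of -1 and 1, 10% and 16% at -0.5 and 0.5, and 6 of 10941 unchanged genes. Only 50 genes were changed at each size, with noise independent between genes. In the data 61.5% of genes were called, so these rates need not hold for it.

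The members, gene lists and tests were chosen with earlier results of these data known. Named genes were the 10 of smallest p in each direction (predicted loci and receptor genes left out), up to 4 of smallest p and the 2 of highest level in each list, and 20 fixed genes, and fewer could be named. Some list members counted in the text are not reported here by name. Others are said to be chosen after their values were seen. Other pseudocounts, filters, scalings, covariates and left-out libraries were tried.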

Additional observations from a re-analysis of the deposited data

Results flagged for a closer look

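Among 215 sets of values (library measures, list levels and named genes, each within a class or training group of 4 to 10 libraries), 17 had a library that stood apart from the rest of its set by Dixon's test, which chance gives in about 1 set of 20. Expert 3 was that library in 8 of them. In the low class it had 13664 genes at 1 FPKM or more, where the next library had 16571. Its mean log2(FPKM + 1) was 1.30 for microglia and macrophages (next 2.01), 2.07 for inhibitory neurons (next 2.61) and 2.62 for mature oligodendrocytes (next 3.0005). It was highest in the low class for Gja1 (545 FPKM, next 318), Aqp4 (138, next 97.2), Olig1 (32.4, next 21.3) and Srebf2 (40.2, next 28.6).

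In the high class, novice 4 stood apart in summed FPKM without Bc1 (727435) and in Hist1h2bc (52.2 FPKM), expert 5 in the signal of the other silent families (1.83 FPKM), novice 3 in C1qc (10.9 FPKM) and naive 5 in Retnlg (23.3 FPKM). Naive 6 was lowest for pericytes and smooth muscle (2.96) and for microglia and macrophages (1.87), as mean log2(FPKM + 1). In the low class, naive 2 stood apart in age (21 weeks) and naive 3 in Ttr (101 FPKM). The contrast between classes in Mir568 differed among training groups (limma, moderated F test, adjusted p = 2.63e-05), with log2 differences of -0.05 within naive, -9.41 within novice and -10.2 within expert. The causes of these values were not tested.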

How the results depend on the processing

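The count of genes that differed between the classes was 6404 to 7015 with each library left out in turn. It was 11793 with no filter, 11877 with a filter of 1 FPKM and 2312 of 2753 tested with one of 20 FPKM. Under the other settings run it lay within 1.5 times the reported count (4951 with replicate number as a block). Whether replicate numbers pair the libraries is not known. Deviations of same-numbered libraries correlated at -0.40 to 0.51 over 18 pairs, over 0.1 in 10 of them. Of 18 libraries, 1 correlated best with its own number. The classes follow replicate number in part, so block and class are not independent. Of 384 values of list medians, 341 moved by less than the spread between libraries.

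The median log2 differences that moved further were these. With a pseudocount of 5, ependymal and choroid plexus genes stood at 0.53 and blood cell genes at 0.42. With no filter, inhibitory neurons stood at 0.048, mature oligodendrocytes at 0.40 and ependymal genes at 0.56. With 1 FPKM these values were the same and blood cells stood at 0.83. With 20 FPKM, pericytes stood at -0.18, fibroblasts at -1.04, microglia at 0.75, pan-neuronal genes at -1.55, excitatory neurons at -1.87, mature oligodendrocytes at -0.29 and precursors at -1.07, as fewer genes were tested. With a filter on the mean, blood cells stood at 0.40, and with quantile normalization mature oligodendrocytes stood at 0.28. Rescaled to the total without Bc1, astrocytes stood at -0.73, pericytes at 0.38, fibroblasts at 0.74, microglia at 0.52, inhibitory neurons at -0.39, mature oligodendrocytes at 0.33, precursors at 0.19 and blood cells at 0.90. With the silent-gene signal subtracted, pericytes stood at -0.18, fibroblasts at 0.24, microglia at -0.30, pan-neuronal genes at -1.59, excitatory neurons at -1.11, inhibitory neurons at -1.06, precursors at -0.64, ependymal genes at 0.53 and blood cells at 0.24. With the replicate block, endothelial genes stood at -0.37, pericytes at -0.26, fibroblasts at -0.0044, inhibitory neurons at -0.95, mature oligodendrocytes at -0.25, precursors at -0.36 and blood cells at 0.29. Leaving out 1 library gave 0.60 to 1.13 for ependymal genes.

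Signs of differences that did not pass turned. Cldn5 stood at 0.12 with trimmed mean of M values, 0.33 with quantile normalization, 0.31 without Bc1 and -0.13 to 0.15 leaving out 1 library. Flt1 stood at -0.031 with subtraction, -0.11 without training group, -0.50 with the block, -0.091 and -0.084 on log2 signal of the receptor or other silent genes, -0.10 to 0.14 leaving out 1 library and -0.11 without novice 1 and novice 3. Rgs5 stood at 0.090 with quantile normalization and 0.076 without Bc1. With the block, Pdgfra stood at -0.024 and Ly6c1 at -0.20. Of 78 called genes followed through each setting, 58 were called in every setting in which they were tested (33 to 35 settings a gene).

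The within-class slope passed in 2354 genes with expert 3, in 601 with quantile normalization and in 0 (limma) with the replicate block, in the low class alone and in the high class alone. The interaction passed in 2 genes with a pseudocount of 0.1. The worth of 1 fragment differed by 0.48 FPKM from 212 receptor genes of any exon number and, in the first definition tried (multiples of up to 6), by 0.13 FPKM, which did not pass, both chosen after seeing the data. The receptor genes were left out of library measures in an alternative that was also chosen after seeing the data, and 3 of 3 measures still passed. That first definition gave a step to expert 3 as well. Any word of 167 that passed the same choice was in 55 higher and 4 lower abundant genes. Except where stated, the cause of a change was not tested. Depth limits genes near 1 FPKM, where a value is about 1 fragment per kb.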
